A study of Rattus norvegicus with 15 samples.

Results

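The genes described here are 40 genes of protein folding in the endoplasmic reticulum (ER) and of the amino acid stress response, measured by RNA-seq in the rat myoblast line H9c2. They were taken by symbol from a fixed list, and all 40 were present among the 11574 genes of the count table. By role they form 4 groups, with 18 ER chaperones and ER-associated degradation (ERAD) factors, 4 stress sensors or their direct effector Xbp1, 10 stress regulators and 8 enzymes of amino acid and one-carbon synthesis. H9c2 is an established line from rat embryonic heart that fuses into myotubes when serum is lowered. Wild-type cells attached for 24 h in 10% fetal bovine serum and were then kept in 1% serum. The 15 cultures formed 5 groups of 3, namely T0 (harvested 24 h after seeding), T7-RA and T14-RA (7 and 14 days without retinoic acid), and T7+RA and T14+RA (7 and 14 days with 1 µM all-trans retinoic acid, RA, added daily). The study asked how much of the change during culture belongs to time and how much to RA. Serum was lowered after the 24 h of attachment, the time at which T0 was harvested. In comparisons with T0, time in culture and low serum therefore cannot be told apart, whereas the later groups share the lowered serum. RA was dissolved in DMSO, and the sources used here do not state whether cultures without RA received DMSO. All samples come from 1 cell line, and although every title names H9c2, the cell line entry of the later samples counts upward (H9c3, H9c4 and so on).

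The ER folds secreted and membrane proteins with chaperones such as BiP (encoded by Hspa5) and with disulfide isomerases. When unfolded protein accumulates, the sensors IRE1 (Ern1), ATF6 and PERK (Eif2ak3) start the unfolded protein response, in which spliced XBP1 and cleaved ATF6 raise chaperone genes while PERK phosphorylates eIF2 and so favours translation of ATF4. The kinase GCN2 reaches ATF4 through the same eIF2 site when amino acids run short, and ATF4 raises genes for serine, asparagine and one-carbon metabolism together with regulators such as Ddit3 and Trib3. Myoblasts secrete much collagen, whose chains are folded in the ER by several of these proteins.

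The libraries held 508397 to 1030820 counts, and counts of the 40 genes ran from 0 (Atf3) to 1680 (Calr) per library. At least 10 counts were present in every library for 33 of the 40 genes, while Atf3 and Aldh18a1 had a mean under 10 and are thinly counted. Replicates of T0 differed from each other more than those of the other groups did (chi-square per gene 2.06 to 3.09 against 1.07 to 2.04). Of the marker genes checked, the table held 4 of 6 for myoblasts (Myod1, Myog, Des and Cdh15), 2 of 7 for cardiomyocytes (Gata4 and Actc1), 3 of 4 for fibroblasts, 1 of 4 for endothelium (Tek, at most 4 counts in a library) and 0 of 4 for macrophages. Myog, a myotube regulator, averaged 48.6 CPM (counts scaled to library size) at T0, 436 at T7-RA, 638 at T14-RA, 316 at T7+RA and 569 at T14+RA. Actc1, the cardiac actin that myotubes also make, averaged 3.33, 34, 250, 9.73 and 33 CPM in the same order, so its mean was lower with RA at both days. Des averaged 5.72, 10.4, 40.3, 11.9 and 39.5. Myod1 averaged 115, 87.9, 80.2, 149 and 65, and Cdh15, a satellite cell cadherin, 638, 460, 324, 525 and 264. The part of these markers in the values below was not tested. In such bulk samples, fewer cells of a type and less RNA per cell cannot be told apart.

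The promoters of the 40 genes were searched for the letters of 2 elements, 1 known from ER chaperone genes and 1 from targets of ATF4, and the matches are shown so that the genes can be compared by sequence. The ER stress element, to which NF-Y and ATF6 or XBP1 bind, was searched as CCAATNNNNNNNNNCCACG on both strands. A RefSeq promoter window of 300 bases (250 before to 50 after the start, GRCr8 build) was at hand for 33 of the 40 genes, and 7 of these 33 (21.2%) held the element, against 22 of 33469 windows (0.0657%) of all genes. The 7 were 6 of 15 chaperone genes with a window and Xbp1, with none among 9 stress regulators or 7 synthesis enzymes. The matches are shown 5′ to 3′ on the gene's strand, with the element in capitals and up to 25 bases on each side that lie in the window before the start.
Hspa5: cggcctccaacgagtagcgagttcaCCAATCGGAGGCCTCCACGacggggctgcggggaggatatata
Hsp90b1, distal match: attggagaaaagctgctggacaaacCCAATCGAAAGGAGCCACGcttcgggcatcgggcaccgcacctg
Hsp90b1, proximal match: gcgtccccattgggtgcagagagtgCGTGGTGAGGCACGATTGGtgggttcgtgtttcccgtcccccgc
Creld2: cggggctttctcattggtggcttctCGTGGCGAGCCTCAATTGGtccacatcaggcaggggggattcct
Canx: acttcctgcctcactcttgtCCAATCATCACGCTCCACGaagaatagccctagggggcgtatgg
Xbp1: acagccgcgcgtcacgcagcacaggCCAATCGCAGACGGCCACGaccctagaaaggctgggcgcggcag
Dnajc3: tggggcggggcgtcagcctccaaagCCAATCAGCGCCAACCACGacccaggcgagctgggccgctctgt
Calr: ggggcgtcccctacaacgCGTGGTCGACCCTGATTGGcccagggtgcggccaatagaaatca
The stretches lie at Hspa5 chr3:38452948-38453015 on the plus strand, Hsp90b1, distal match chr7:23012426-23012494 on the minus strand, Hsp90b1, proximal match chr7:23012322-23012390 on the minus strand, Creld2 chr7:121789214-121789282 on the plus strand, Canx chr10:35158044-35158107 on the minus strand, Xbp1 chr14:84604533-84604601 on the plus strand, Dnajc3 chr15:102432509-102432577 on the plus strand and Calr chr19:40213117-40213178 on the plus strand. Hsp90b1 carried the element at 2 places. A match is a description of the letters and not evidence of binding.

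The ATF4 composite element, at which ATF4 pairs with a C/EBP protein, was searched as TGATGNAA on both strands, and no match overlapped an ER stress element. It was found in 4 of the 33 windows (12.1%) and in 1332 of all 33469 (3.98%). The 4 genes were the regulators Trib3 and Chac1, the proline synthesis enzyme Pycr1 and the ERAD factor Herpud1, and their matches are shown for comparison, with the element in capitals.
Chac1: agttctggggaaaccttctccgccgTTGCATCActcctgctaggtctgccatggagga
Trib3: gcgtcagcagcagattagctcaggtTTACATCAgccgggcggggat
Pycr1: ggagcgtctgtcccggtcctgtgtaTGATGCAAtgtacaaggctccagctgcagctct
Herpud1: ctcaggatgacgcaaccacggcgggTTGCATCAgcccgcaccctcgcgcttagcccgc
They lie at Chac1 chr3:126795939-126795996 on the plus strand, Trib3 chr3:161275534-161275579 on the minus strand, Pycr1 chr10:106420911-106420968 on the minus strand and Herpud1 chr19:10614859-10614916 on the minus strand. Atf6, Pdia6, Atf3, Manf, Pdia3, Aldh18a1 and Ern1 were not searched here.

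Levels are given as CPM after TMM scaling. Between genes they were compared only per kilobase (kb) of the longest transcript, as a mean over the 15 cultures. On this scale the calcium-binding chaperone Calr was the highest at 866 CPM per kb, followed by the disulfide isomerases P4hb at 568 and Pdia3 at 525, then Hsp90b1 (GRP94) at 413 and Hspa5 at 396. Hsp90b1 and Hspa5 changed places in both day 14 groups, where Hspa5 had the higher mean, and P4hb and Pdia3 lay within the spread between replicates in every group but T0. Of the stress regulators, Atf4 at 317 and Atf5 at 256 were the highest, with Atf5 slightly above Atf4 at T0. Of the synthesis enzymes, Phgdh at 95.9 and Shmt2 at 95.4 stood side by side, and their order differed between groups. Of the sensor group, Xbp1 stood at 71.1, Atf6 at 37.8, Eif2ak3 at 8.93 and Ern1 at 5.44, while the chaperones ran from 12.2 (Dnajb9) to 866. Xbp1 and Atf6 thus lay within the range of the chaperones and the kinases Eif2ak3 and Ern1 below it, and Atf3 was the lowest of all 40 genes at 0.95.

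The mean log2 CPM over the genes of a group summarises each culture. For the 18 chaperone genes it was 8.08 ± 0.078 at T0, 8.01 ± 0.071 at T7-RA and 7.73 ± 0.020 at T14-RA, against 8.21 ± 0.091 and 8.15 ± 0.020 in the cultures T7+RA and T14+RA (SD, n = 3). The 3 cultures of T14-RA (7.72, 7.76 and 7.72) lay under every other culture, and T14+RA (8.13 to 8.17) overlapped T0, whose highest culture stood at 8.15. For the 8 synthesis enzymes the mean was 6.35 ± 0.20 at T0, 5.96 ± 0.24 at T7-RA, 5.70 ± 0.048 at T14-RA, 6.16 ± 0.24 at T7+RA and 6.07 ± 0.18 at T14+RA (SD, n = 3). These enzymes were lower at T14-RA (5.64 to 5.73) than at T0 (6.11 to 6.47) with no overlap, whereas the T7-RA cultures (5.69 to 6.12) overlapped both.

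For the 10 stress regulators the mean was 5.82 ± 0.047 at T0, 6.07 ± 0.091 at T7-RA, 6.02 ± 0.15 at T14-RA, 6.34 ± 0.028 at T7+RA and 6.42 ± 0.17 at T14+RA (SD, n = 3), so that T7-RA (6.00 to 6.17) and both RA groups lay above all T0 cultures. A mean over 10 genes hides their spread, since 6 of the 10 had a negative T14 term in the fits described below, with a median of -0.09 (log2), and 9 of 10 a positive RA term. The sensors stayed between 5.80 and 6.30 in all 15 cultures. No p-value is given for these means, since the genes were chosen with results of these data known.

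**Figure D1:**
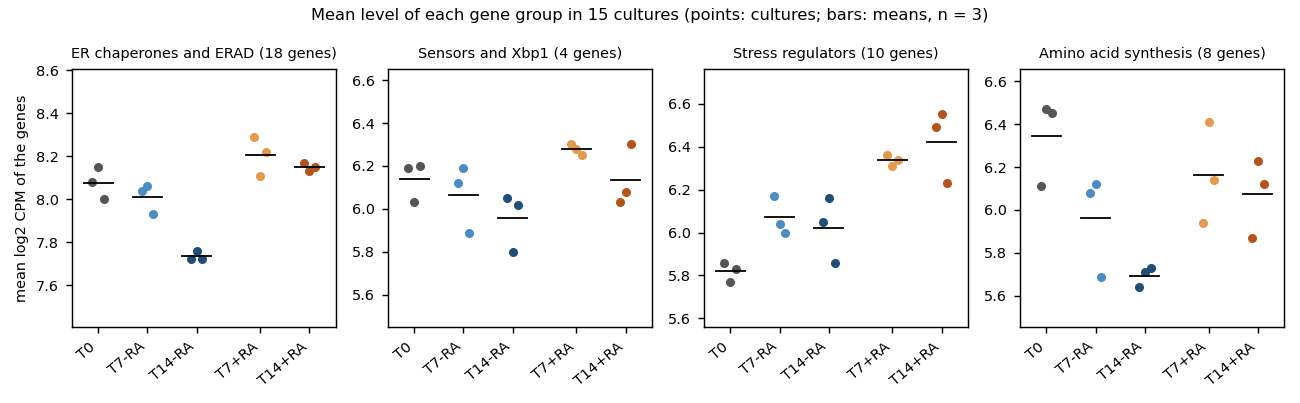
Mean log2 CPM of the genes of each role in the 15 cultures, 1 panel per role, with points for cultures and bars for the means of 3 cultures. The ER chaperones stood at 8.08 at T0, 7.73 at T14-RA and 8.15 at T14+RA, while the stress regulators stood at 6.42 at T14+RA against 5.82 at T0.

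The chaperone and the amino acid genes were set against each other by the difference of their means in each culture (synthesis enzymes minus chaperones, log2). This difference was -1.73 ± 0.22 at T0, -2.04 ± 0.17 at T7-RA, -2.04 ± 0.046 at T14-RA, -2.05 ± 0.33 at T7+RA and -2.08 ± 0.20 at T14+RA (SD, n = 3). From T0 to T14-RA the enzymes changed by -0.65 and the chaperones by -0.34, a gap of -0.30 with no overlap between the T0 cultures (-1.97 to -1.55) and the T14-RA cultures (-2.08 to -1.99). The gap was -0.31 from T0 to T7-RA and -0.34 from T0 to T14+RA, and in both the cultures overlapped T0. Between T14-RA and T14+RA the enzymes changed by 0.38 and the chaperones by 0.42, a gap of -0.04 within the spread between replicates.

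Single genes were tested across all 11574 genes with edgeR, in an additive model with a T7, a T14 and an RA term, with an adjusted p of 0.001 as the limit for a call. The T7 and T14 terms are the changes from T0 and share the T0 cultures, and the RA term is the mean RA change over both days. At day 7, 3 of the 40 genes rose (background over all genes 4.29%) and 2 fell (4.44%). At day 14, 2 rose (8.47%) and 9 fell (8.85%). Under library size scaling alone, which moved the median of all genes at day 14 from 0.05 to 0.15 (log2), that split became 4 and 6. At an adjusted p under 0.05, 4 rose (17.9%) and 18 fell (17.5%) at day 14. The median day 14 change was -0.39 (log2) over the chaperones and -0.65 over the synthesis enzymes, of which 0 of 8 were positive, -0.09 over the regulators and -0.14 over the sensor group, against 0.05 over all genes.

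The largest fall among the chaperones was that of Hyou1 (ORP150), a large HSP70-type chaperone that exchanges the nucleotide of BiP. Its level was 439, 379 and 491 CPM at T0, 246, 231 and 225 at T7-RA, 159, 174 and 169 at T14-RA, 339, 317 and 369 at T7+RA, and 238, 234 and 257 at T14+RA. Each later group lay under all T0 cultures, and each RA group lay above its RA-free counterpart. The T7 term was -0.89 ± 0.110 (log2, SE) and the T14 term -1.38 ± 0.113, a fold of 2.61 lower (edgeR adjusted p = 2.88e-09 and 1.22e-15). Hyou1 and Mthfd2 were the 2 genes of the 40 that fell at both days. Both calls of Hyou1 held in all 15 fits that left out 1 library.

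Calr, which retains calcium and binds sugar chains of new glycoproteins, read 1920, 1970 and 1780 CPM at T0 and 1260, 1360 and 1350 at T14-RA. P4hb, the isomerase that is also a subunit of collagen prolyl hydroxylase, read 1570, 1640 and 1550 at T0 and 1110, 1150 and 1130 at T14-RA. In both genes the T14+RA cultures (1450 to 1650 for Calr and 1420 to 1530 for P4hb) lay between these groups, below all of T0. The T14 terms were -0.46 ± 0.0932 and -0.42 ± 0.0922 (log2, SE, edgeR adjusted p = 7.05e-05 and 0.000173). Pdia4, another disulfide isomerase, fell by 0.53 on the log2 scale from a mean of 519 CPM at T0 to 355 at T14-RA and 426 at T14+RA (edgeR adjusted p = 5.8e-05). Creld2, a secreted ER stress protein, fell by 1.00 from 57.9, 95.7 and 103 CPM at T0 to 40.8, 39 and 44 at T14-RA (adjusted p = 0.000105), and its lowest T0 culture was replicate 1. These 4 calls depended on single libraries. Calr was not called without T0 replicate 1 or T14-RA replicate 1, Pdia4 without T0 replicate 2, Creld2 without T0 replicate 2 or 3, and P4hb without T0 replicate 1 or 2 or any T14-RA replicate, with left-out log2 values from -0.49 to -0.41 for Calr, -0.58 to -0.41 for Pdia4, -1.23 to -0.83 for Creld2 and -0.44 to -0.39 for P4hb. Without TMM scaling Calr, Pdia4 and P4hb were not called either.

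Canx, the membrane-bound partner of Calr in glycoprotein folding, went the other way. Its level was 749, 644 and 736 CPM at T0, 1030, 972 and 1080 at T7-RA and 901, 893 and 848 at T14-RA. Every later culture was above all T0 cultures. The T7 term was 0.50 ± 0.0997 (log2, SE, edgeR adjusted p = 0.00011), and it lost its call without T0 replicate 2, where it was 0.44. The T14 term was 0.35 ± 0.1 with an adjusted p of 0.00481, which missed the threshold. Thus the day 14 cultures lay below T0 for the soluble lectin chaperone and above it for the membrane-bound one. Of the chaperones never called, the 2 most counted were Pdia3 and Pdia6, with T14 terms of -0.03 and -0.34. Herpud1, also never called, had T7 and T14 terms of 0.48 ± 0.147 and 0.51 ± 0.148 (log2, SE, edgeR adjusted p = 0.012 and 0.00522). Its day 7 and day 14 cultures all lay above T0. The T14 term was positive for 4 of the 18 chaperones and negative for 14.

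**Figure D2:**
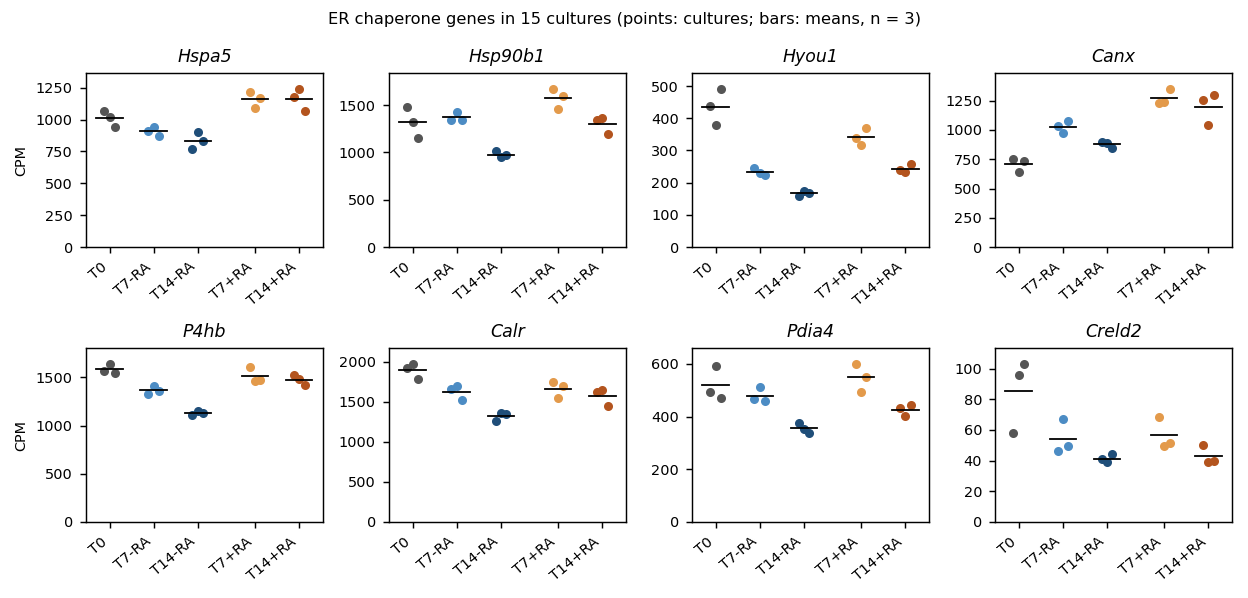
CPM of 8 ER chaperone genes in the 15 cultures, with points for cultures and bars for the means of 3. Hyou1 stood at a mean of 436 at T0 and 167 at T14-RA, and in Canx every later culture lay above the T0 cultures.

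Of the 8 enzymes of amino acid and one-carbon synthesis, 4 fell at day 14 (8.85% of all genes fell), and these 4 act in serine and mitochondrial one-carbon synthesis. Psat1, the aminotransferase of serine synthesis, read 277, 233 and 216 CPM at T0, 205, 245 and 200 at T7-RA, 109, 172 and 117 at T14-RA, 195, 252 and 233 at T7+RA and 158, 160 and 170 at T14+RA. Its day 7 cultures overlapped T0 while its day 14 cultures lay below. Phgdh, the first enzyme of the same route, read 177, 266 and 256 at T0, 171, 203 and 118 at T7-RA, 124, 113 and 132 at T14-RA, 167, 216 and 197 at T7+RA and 155, 168 and 132 at T14+RA. The T14 terms were -0.83 ± 0.138 for Psat1 and -0.88 ± 0.150 for Phgdh (log2, SE, edgeR adjusted p = 1.85e-06 and 4.16e-06).

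Shmt2, which makes glycine from serine in mitochondria, fell by 0.74 on the log2 scale at day 14 (SE 0.134, edgeR adjusted p = 8.97e-06), from a mean of 248 ± 45.0 CPM at T0 to 153 ± 21.6 at T14-RA and 184 ± 15.8 at T14+RA (SD, n = 3). Mthfd2, the next mitochondrial folate enzyme, read 146, 173 and 143 CPM at T0, 88.3, 102 and 66.8 at T7-RA, 81.7, 49.6 and 88.1 at T14-RA, 82.7, 103 and 87.4 at T7+RA and 92.6, 123 and 90.6 at T14+RA. All 12 later cultures lay below T0, and the change was -0.92 ± 0.165 at day 7 and -0.95 ± 0.168 at day 14 (log2, SE, edgeR adjusted p = 1.79e-05 and 6.62e-06). The day 14 calls of these 4 enzymes held in all 15 fits that left out 1 library. Asns, the asparagine synthetase, had a T14 term of -0.53 (adjusted p = 0.0147) and Psph, the last enzyme of serine synthesis, one of -0.55, and neither was called.

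Among the regulators, 2 rose at both days. Ddit4 (REDD1), an inhibitor of mTORC1, read 20.7, 9.38 and 12.6 CPM at T0, 77.5, 57.8 and 65.4 at T7-RA, 73.3, 53.1 and 66 at T14-RA, 45.6, 45.6 and 34.3 at T7+RA, and 42.4, 69.1 and 50.8 at T14+RA. All later cultures lay above T0, and the T7+RA cultures lay below those of T7-RA. The T7 and T14 terms were 2.08 ± 0.282 and 2.19 ± 0.283 (log2, SE), or 4.23-fold and 4.58-fold higher (edgeR adjusted p = 4.38e-08 and 4.11e-09), and both held in all 15 left-out fits.

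Ddit3 (CHOP), the transcription factor of prolonged ER stress, read 33.1, 26.3 and 18.9 CPM at T0, 57.3, 65.8 and 61 at T7-RA, 60.1, 77.9 and 59.3 at T14-RA, 68.4, 71.1 and 75.4 at T7+RA, and 100, 121 and 85.2 at T14+RA. Here too no later culture reached down to T0, and the T14+RA cultures were the highest. The T7 term was 1.06 ± 0.237 and the T14 term 1.39 ± 0.234 (log2, SE, edgeR adjusted p = 0.000482 and 2.39e-06). The T7 call was lost without T0 replicate 2 or 3 or any T7-RA replicate (0.90 to 1.31 over the left-out fits), and also with limma-voom and DESeq2. Without T0 replicate 2, 3 genes in place of 5 were called at day 7. Atf4 itself was near its T0 level, with T7 and T14 terms of 0.04 and -0.02.

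**Figure D3:**
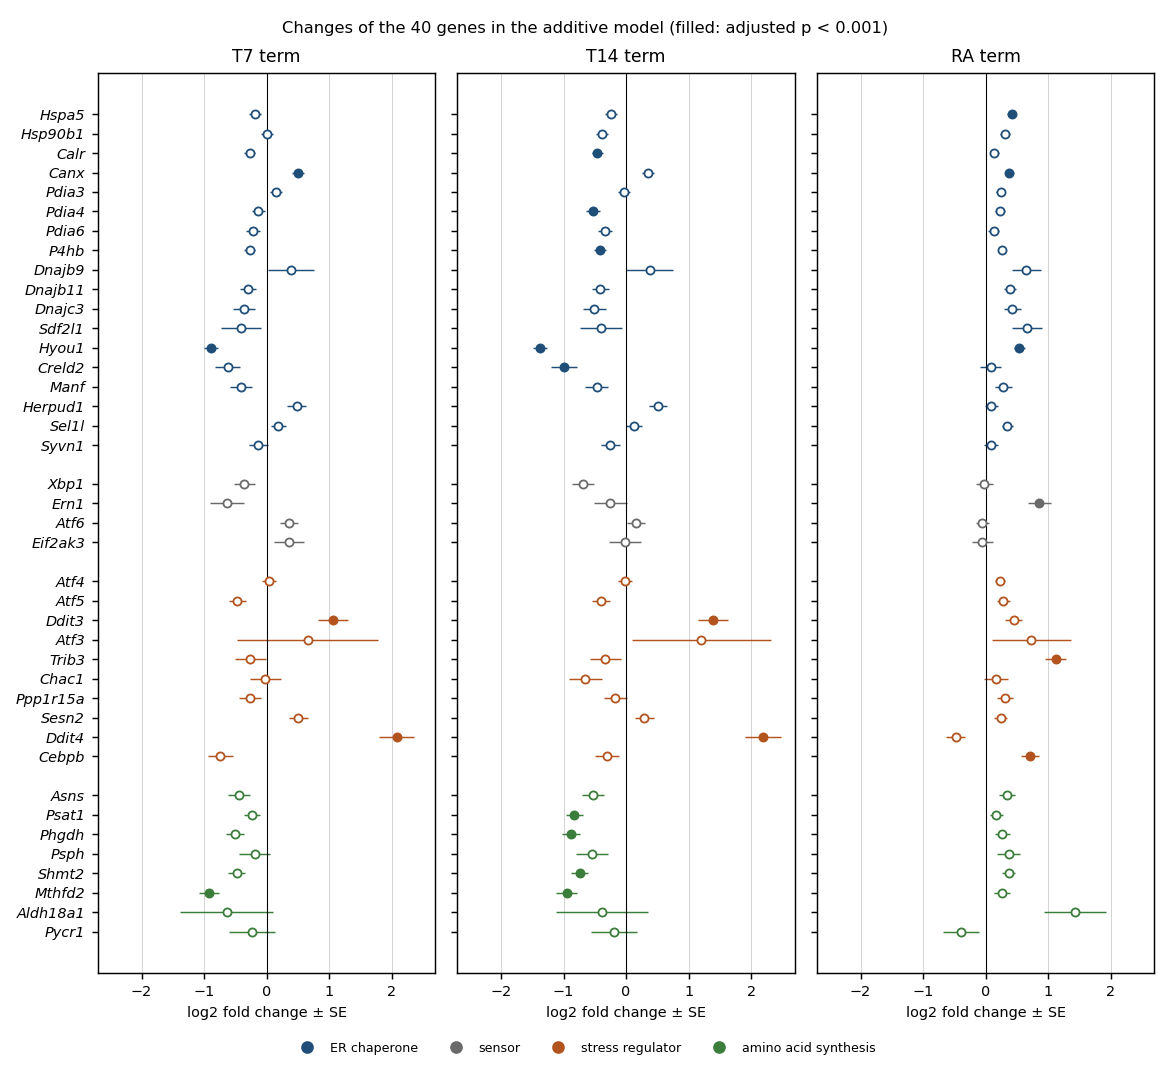
Log2 fold change ± SE of each of the 40 genes in the T7, T14 and RA terms of the additive model, grouped and coloured by role, with filled points for an adjusted p under 0.001. All 8 synthesis enzymes lie left of 0 at T14, and all 18 chaperones lie right of 0 in the RA term.

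RA raised 6 of the 40 genes over both days (background 3.33%) and lowered 0 (3.07%). At an unadjusted p under 0.05, edgeR gave 1 lower gene, and limma-voom and DESeq2 called 0 lower. At an adjusted p under 0.05, 18 genes were higher (7.4%) and 1 was lower (7.3%). The 1 lower gene was Ddit4, with an RA term of -0.48 ± 0.157 (log2, SE, adjusted p = 0.0288). In sign, the RA term was positive for 18 of 18 chaperones, 9 of 10 regulators, 7 of 8 synthesis enzymes and 1 of 4 in the sensor group, against 5637 of all 11574 genes. Related genes described below also leaned to positive. Among them were 26 of 37 further ER folding and ERAD genes, 19 of 22 ER translocation and glycosylation genes and 9 of 12 cytosolic chaperones. The same held for 11 of 18 tRNA synthetases and 14 of 22 ATF4-linked transport and one-carbon genes. The median RA term was 0.29 (log2) for the chaperones, 0.30 for the regulators, 0.30 for the enzymes and -0.04 for the sensor group, against -0.01 for all genes. The 6 called genes were Hspa5, Canx and Hyou1 among the chaperones, the sensor Ern1, and the regulators Trib3 and Cebpb. No synthesis enzyme was among them, and 2 of the 8 were higher at an adjusted p under 0.05. Without T0 replicate 2 the count was 9.

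The largest change of these 6 was that of Trib3, a pseudokinase target of ATF4 and CHOP that restrains AKT signalling. It read 24.8, 41.3 and 56.6 CPM at T0, 34.6, 29.6 and 37.8 at T7-RA, 32.4, 35.4 and 20.3 at T14-RA, 69.8, 68.5 and 70.3 at T7+RA, and 73.3, 66 and 67.1 at T14+RA. All RA cultures lay above all others. The RA term was 1.12 ± 0.165 (log2, SE), or 2.18-fold higher (edgeR adjusted p = 2.86e-07), and it held in all 15 left-out fits. Its promoter holds the ATF4 element shown above, and of the other genes with that element Chac1 had an RA term of 0.17, Herpud1 one of 0.09 and Pycr1 one of -0.39, none of them called.

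Hspa5, the BiP gene whose promoter heads the sequences above, read 1070, 1020 and 941 CPM at T0, 907, 945 and 870 at T7-RA, 770, 902 and 835 at T14-RA, 1220, 1090 and 1170 at T7+RA, and 1180, 1240 and 1070 at T14+RA. The RA cultures lay above their RA-free counterparts at both days and at or above the highest T0 value. The RA term was 0.42 ± 0.0722 (log2, SE, edgeR adjusted p = 9.05e-06). Canx had 1230, 1240 and 1350 CPM at T7+RA and 1260, 1040 and 1300 at T14+RA, above the RA-free cultures of the same day, and an RA term of 0.38 ± 0.0729 (adjusted p = 5.99e-05). For Hyou1 the RA term was 0.54 ± 0.0873 (adjusted p = 2.18e-06), opposite in sign to its time terms. Each of the 3 calls held in all 15 left-out fits. Creld2, whose promoter also holds the ER stress element, had an RA term of 0.08, and Calr one of 0.14. Of the other carriers of that element, Hsp90b1 had an RA term of 0.31, Dnajc3 one of 0.43 and Xbp1 one of -0.02, none of them called.

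Ern1, the IRE1 gene, had 10 to 51 counts per library. It read 26.2, 22.8 and 18.9 CPM at T7-RA, 39.6, 17.7 and 33.9 at T14-RA, 49.9, 45.6 and 34.3 at T7+RA, and 49.2, 58.1 and 59.8 at T14+RA, while T0 spread from 24.4 to 48.3. The RA groups did not overlap the RA-free groups of the same day. The RA term was 0.86 ± 0.189 (log2, SE, edgeR adjusted p = 0.000488). It was not called by DESeq2, nor without T7-RA replicate 2 or 3, T14-RA replicate 2, T7+RA replicate 1 or 2, or T14+RA replicate 3 (0.75 to 1.00). Xbp1, the transcript that IRE1 splices, had an RA term of -0.02 and a T14 term of -0.69 that missed the threshold (adjusted p = 0.00111). Gene counts do not separate its spliced form. Atf6, the most counted sensor, had an RA term of -0.05, which averages 0.21 at day 7 and -0.34 at day 14. Its T7+RA cultures lay above those of T7-RA and its T14+RA cultures below those of T14-RA, and the difference between days was -0.55 ± 0.187 (log2, SE, edgeR adjusted p = 0.234), which missed the threshold.

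Cebpb, a leucine zipper factor that can pair with ATF4, read 37, 57.8 and 36.3 CPM at T7-RA, 60.1, 74.4 and 64.3 at T14-RA, 75.5, 73.8 and 90.8 at T7+RA, and 99.4, 110 and 83.4 at T14+RA. T0 (60.7 to 98.5) overlapped all groups but T7-RA. The RA term was 0.71 ± 0.142 (log2, SE, edgeR adjusted p = 0.000125), and it was lost without T7-RA replicate 1 (range 0.64 to 0.78). Atf4 had an RA term of 0.23 and Sesn2, an inhibitor of mTORC1 that senses leucine, one of 0.24, and neither passed.

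**Figure D4:**
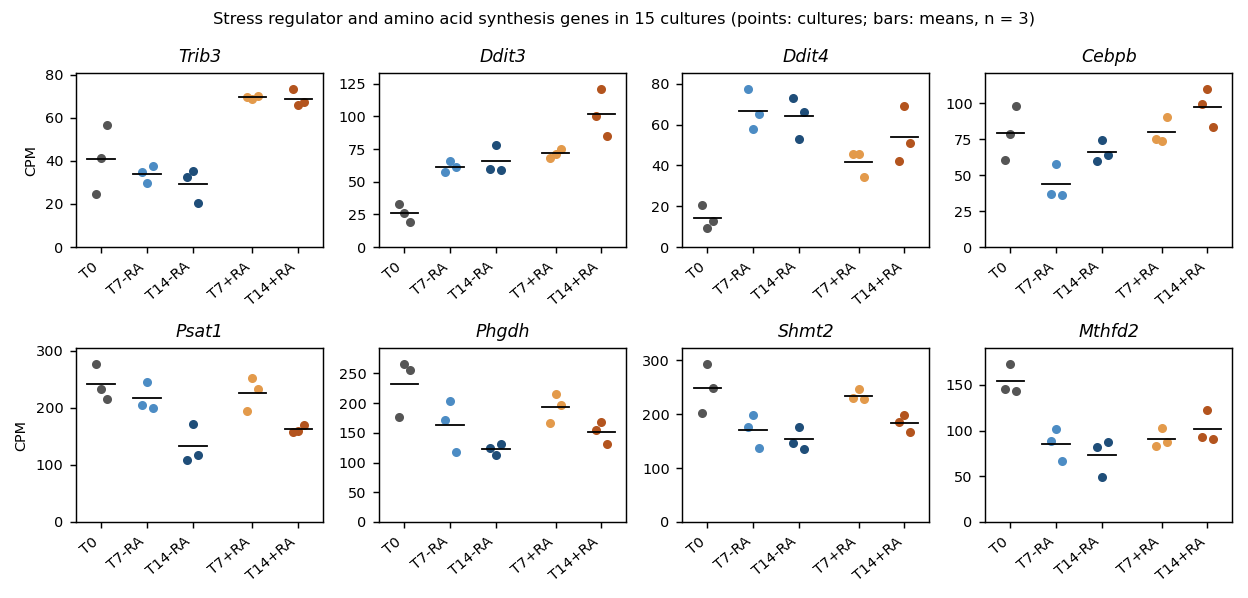
CPM of 4 stress regulators (upper row) and 4 synthesis enzymes (lower row) in the 15 cultures, with points for cultures and bars for the means of 3. Trib3 lay between 66 and 73.3 in the RA cultures and between 20.3 and 56.6 in all others, and Mthfd2 lay below its T0 cultures in every later culture.

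A model with 5 group means gave the second week without RA and the RA change at each day. These comparisons share groups with each other and with the additive terms. From T7-RA to T14-RA, 0 of the 40 genes rose (background 1.87%) and 2 fell (1.09%). For the 0, edgeR gave 1 higher gene at an unadjusted p under 0.05, and limma-voom and DESeq2 called 0. The 2 were Hsp90b1, which went from 1340, 1430 and 1340 CPM to 1010, 948 and 974 (-0.49 ± 0.0924, log2, SE, edgeR adjusted p = 9.03e-05), and Psat1 (-0.73 ± 0.144, adjusted p = 0.000167). The T7-RA and T14-RA cultures did not overlap in either gene. No gene was called without T7-RA replicate 2 or T14-RA replicate 3, and 1 was called without T14-RA replicate 1 or 2. Psat1 was not called by DESeq2.

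At day 7, RA raised 2 genes (1.87%) and lowered 0 (1.3%), and for the lower side edgeR gave 1 gene at an unadjusted p under 0.05 while limma-voom and DESeq2 called 0. The 2 were Hyou1 (0.54 ± 0.114, log2, SE) and Trib3 (1.03 ± 0.228), with edgeR adjusted p of 0.000485 and 0.000895. DESeq2 called 0 and limma-voom 1. No gene was called without T7-RA replicate 1 or 3 or T7+RA replicate 1 or 3, and 1 without T7-RA replicate 2, T7+RA replicate 2 or T14+RA replicate 1. The left-out log2 values ran from 0.48 to 0.59 for Hyou1 and from 0.94 to 1.12 for Trib3.

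At day 14, RA raised 6 genes (2.46%) and lowered 0 (2.35%), with 1 lower gene at an unadjusted p under 0.05 in edgeR and 0 called by limma-voom or DESeq2. They were Hspa5 (0.48 ± 0.0929, log2, SE), Hsp90b1 (0.41 ± 0.0928), Canx (0.45 ± 0.0939), P4hb (0.39 ± 0.0865), Atf5 (0.61 ± 0.127) and Trib3 (1.22 ± 0.239). Chaperones were 4 of these 6 and 18 of all 40 genes. The median RA change at day 14 was 0.43 (log2) for the chaperones and 0.45 for the regulators. Hsp90b1 stood at 1340, 1360 and 1190 CPM at T14+RA against 948 to 1010 at T14-RA. The edgeR adjusted p ran from 8.19e-05 for Hspa5 to 0.000781 for Hsp90b1. Atf5 was not called by limma-voom (adjusted p = 0.00151) or DESeq2 (0.00175), nor Trib3 by DESeq2 (0.00119). Hsp90b1 and P4hb were not called under library size scaling and held in 4 of the 15 left-out fits each. Without T14-RA replicate 1, 2 or 3 the count was 1, 3 and 0, and without T14+RA replicate 1 or 2 it was 0 and 3, so these calls depended on single libraries. The left-out log2 values ran from 0.42 to 0.54 for Hspa5, 0.39 to 0.47 for Hsp90b1 and 0.39 to 0.54 for Canx. They ran from 0.36 to 0.41 for P4hb, 0.45 to 0.75 for Atf5 and 1.04 to 1.34 for Trib3.

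No gene of the 40 differed between the RA change at day 14 and that at day 7 at an adjusted p under 0.05 (background 0.743%). At an unadjusted p under 0.05, edgeR gave 4 with a higher and 1 with a lower change at day 14, and limma-voom and DESeq2 called 0. Closest was Atf5, a factor related to ATF4, which read 301, 321 and 306 CPM at T0, 259, 259 and 225 at T7-RA, 199, 227 and 196 at T14-RA, 231, 260 and 237 at T7+RA, and 315, 387 and 237 at T14+RA. At day 7 the groups overlapped, and at day 14 the RA cultures were higher but spread widely, replicate 3 being the lowest. Its difference was 0.64 (log2, edgeR adjusted p = 0.082), and with the replicate number as a block it was 0.63 (adjusted p = 0.0258). Left out singly, T0 replicate 2 or T14+RA replicate 3 gave 1 called gene. The median RA change at day 7 and day 14 was 0.17 and 0.43 (log2) in the chaperones and 0.26 and 0.45 in the regulators. It was 0.16 and 0.31 in the synthesis enzymes and 0.05 and 0.09 in the sensor group. In the 37 further ER folding and ERAD genes described below it was 0.08 and 0.27.

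**Figure D5:**
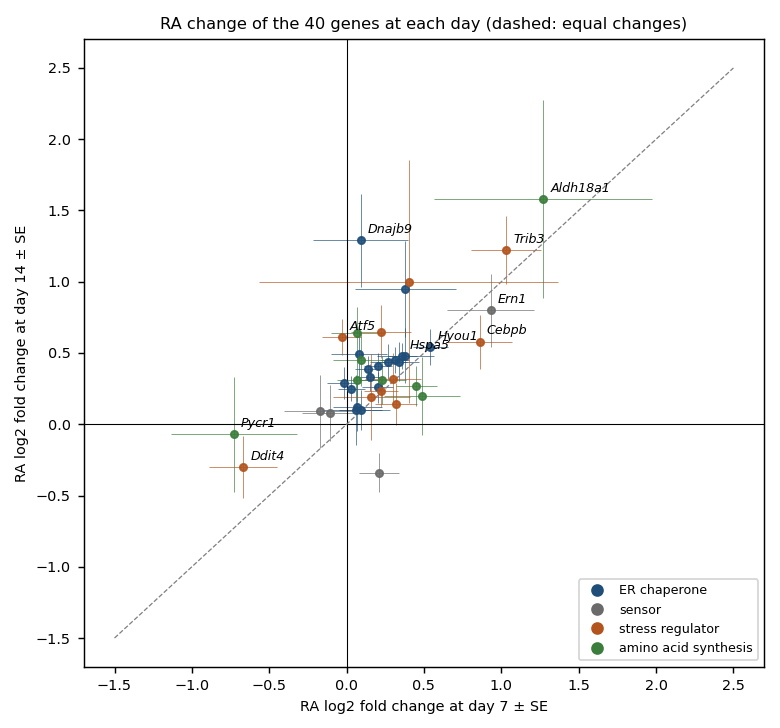
RA change (log2 fold change ± SE) of the 40 genes at day 7 (horizontal axis) and day 14 (vertical axis), coloured by role, with a dashed line where both are equal. Trib3 lies at 1.03 and 1.22, Atf5 at -0.03 and 0.61, and Ddit4 at -0.67 and -0.30. Dnajb9, named there for its place in the plot, lies at 0.09 and 1.29.

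Other genes of these pathways were counted in the same fits. Of 38 further ER folding and ERAD genes, 37 were in the table, and 1 rose (8.47% of all genes) and 10 fell (8.85%) at day 14. The 3 largest falls were those of Creb3l1 (-1.07, log2), a membrane-bound transcription factor, Serpinh1 (-0.98), the collagen chaperone HSP47, and P4ha2 (-0.93), a collagen prolyl hydroxylase. RA raised 2 of the 37 (3.33% of all genes), namely P4ha1 (0.77), another collagen prolyl hydroxylase, and Ganab (0.31), a glucosidase of glycoprotein folding. The fibroblast markers did not move together. Col1a1 averaged 29900 CPM at T0, 20200 at T14-RA and 21100 at T14+RA, Thy1 averaged 290, 270 and 180, and Dcn averaged 0, 50.5 and 120. The part of these markers in the values above was not tested. Of 18 cytosolic tRNA synthetases, some of which ATF4 also targets, 5 fell at day 14 (8.85% of all genes), with Vars1 (-1.36), Yars1 (-0.71) and Eprs (-0.50) as the largest. RA raised 1 of the 18 (3.33% of all genes), Wars1 (0.54).

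Of 24 ATF4-linked transport and one-carbon genes, 22 were in the table, and 3 rose and 6 fell at day 14, against 8.47% and 8.85% of all genes. The cationic amino acid transporter Slc7a1 fell by 1.49 and the mitochondrial folate enzyme Mthfd1l by 1.37 on the log2 scale. RA raised 4 and lowered 2 of the 22, against 3.33% and 3.07% of all genes. Got1, the cytosolic aspartate aminotransferase, rose by 0.75 and Vldlr by 0.72, whereas Slc7a11, the cystine transporter, fell by 0.97, from a mean of 73.2 CPM at T7-RA to 41.6 at T7+RA and from 41.8 at T14-RA to 18.8 at T14+RA. Of 12 genes of eIF2 control, 3 rose at day 14 (8.47% of all genes). They were the kinases Eif2ak4 (GCN2, 1.15) and Eif2ak2 (PKR, 0.91) and the exchange factor subunit Eif2b4 (0.99), and RA raised Eif2ak1 (0.50), the haem-regulated kinase.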

How the data were processed

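RNA was sequenced from 15 H9c2 cultures. The authors mapped the reads with HISAT2 to the rat genome, counted them per gene with featureCounts and deposited raw counts for genes with more than 20 counts in sum. The submitters' processing notes name Rnor_6.0, and the strand setting is not given in the sources used here. The other deposited column used, per the file headers the largest transcript size, was taken as transcript length for levels per kb only. Groups came from the sample labels, and p-values measure the spread between cultures labelled as replicates.

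All 11574 genes were fitted with edgeR 4.0.16 (R 4.3.3, TMM, robust quasi-likelihood F test, all 15 libraries sharing 1 estimate of spread), after tests on simulated data. Benjamini-Hochberg adjustment ran over all genes of a term, with calls at 0.001 as in the study, and at 0.05 for the difference between days. The SE is the log2 fold change divided by the square root of F. Mean log2 CPM used a prior count of 2. The study used limma. Alternatives were limma-voom (limma 3.58.1), DESeq2 1.42.0, other scalings, filters and thresholds, a replicate block and each library left out. Members and gene lists were chosen with earlier results of these data known. Genes called in at least 1 comparison were named, with up to 2 further examples per role (the most counted) and up to 3 called genes of each other list per term. Creld2 and Calr in the RA term, Herpud1 in the time terms and the genes of the promoter search or of the plot of RA change by day were named for those comparisons. Cbs of the transport list was left out because its T0 counts were 0. Same-numbered cultures of different groups deviated together only weakly (mean r 0.018 and at most 0.0991 over 30 pairs), so the numbers were not read as pairs. Over 60 pairs with different numbers r was -0.009 and at most 0.0534. That is no independent yardstick, because deviations from a group mean cancel within the group.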

Additional observations from a re-analysis of the deposited data

How the results depend on the processing

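Of 672 alternative values of single-gene calls, 578 kept the call, 94 no longer passed the threshold and 0 turned sign. With the threshold at 0.05 the genes called were 14 (T7, 23.1% of all genes), 22 (T14, 35.4%), 19 (RA, 14.7%), 6 (T14-RA against T7-RA, 7.79%), 7 (RA at day 7, 7.41%) and 15 (RA at day 14, 11.2%). DESeq2 gave 1 for T14-RA against T7-RA and 0 for RA at day 7, and limma-voom and library size scaling each gave 1 for RA at day 7. The replicate block gave 1 gene (Atf5) for the difference between days in place of 0, and moved no other count of calls by over 1.5 times. With single libraries left out, the counts ranged from 3 to 5 (T7), 8 to 13 (T14), 5 to 9 (RA), 0 to 2 (T14-RA against T7-RA), 0 to 2 (RA at day 7), 0 to 7 (RA at day 14) and 0 to 1 (difference between days).

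The chaperone mean changed between T0 and T14-RA by -0.24 under library size scaling (-0.38 to -0.31 with libraries left out) and between T14-RA and T14+RA by 0.34 over the genes with at least 10 counts in every library (left out 0.41 to 0.43). Its change between T7-RA and T7+RA ranged from 0.16 to 0.25. For the synthesis enzymes the ranges were -0.77 to -0.59, 0.06 to 0.31 (T7) and 0.30 to 0.48 (T14). The gap between both groups of genes ranged from -0.42 to -0.21 for T0 to T14-RA. For RA at day 7 it was -0.01, and it turned to 0.01 with a prior count of 0.5, to 0.04 over genes with at least 10 counts, and to 0.15, 0.01, 0.04 and 0.05 without T7+RA replicate 1, T7+RA replicate 3, T7-RA replicate 1 and T7-RA replicate 2 (range -0.18 to 0.15). For RA at day 14 it was -0.04, and it turned to 0.03 over genes with at least 10 counts and to 0.07 without T14+RA replicate 1 (range -0.13 to 0.07), so neither gap has a settled sign. The cause of these moves was not tested. Depth limits Atf3 (0 to 9 counts per library) and Aldh18a1 (2 to 16) most, and the RA term of Aldh18a1 had an SE of 0.489.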

Other observations

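Genes of the neighbouring folding systems were tested in the same edgeR fits and are described here without a test of the lists. Of 22 genes of ER translocation and glycosylation, 3 rose and 3 fell at day 14, against 8.47% and 8.85% of all genes. Sec61a1, the pore of the translocon, fell by 1.12 on the log2 scale, from a mean of 619 CPM at T0 to 286 at T14-RA and 295 at T14+RA, and Stt3b, a catalytic subunit of the oligosaccharyltransferase, fell by 1.05. Spcs1, a signal peptidase subunit, rose by 1.02 (edgeR adjusted p = 0.000196). RA raised Spcs2 (0.55), of the same peptidase.

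Of 14 cytosolic chaperones, 12 were in the table, and 3 fell at day 14 (8.85% of all genes), namely Dnajb1 (-1.14, log2), Stip1 (-0.62) and Hspa8 (-0.55). Of 9 mitochondrial chaperones and proteases, 2 were higher at day 14 at an adjusted p under 0.05, near the 17.9% of all genes, and neither passed 0.001. RA raised Hspa9, the mitochondrial HSP70, over both days (RA term 0.43, log2, edgeR adjusted p = 0.000107), with means of 298 CPM at T7-RA, 373 at T7+RA, 280 at T14-RA and 410 at T14+RA.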
